A study of Mus musculus with 10 samples.

Results

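Fatty acid elongases and desaturases lengthen and desaturate the fatty acids that the liver makes or takes from the diet. The set held 10 genes, 6 elongases (Elovl1, Elovl2, Elovl3, Elovl5, Elovl6 and Elovl7), both stearoyl-CoA desaturases Scd1 and Scd2, and the front-end desaturases Fads1 and Fads2. They were chosen by gene symbol in the array annotation, and each of the 10 had 1 probe set of its own among the 19933 genes tested. Livers of 5 Nr1d1 knockout (KO) and 5 wild-type (WT) mice were compared, with 1 mouse per array. KO mice were Nr1d1-/-, labelled as lacking the nuclear receptor Rev-erb alpha, and their line had been crossed back to C57Bl/6 for 7 or more generations. WT mice were C57Bl/6 animals bought from a supplier, so genotype and origin of the mice cannot be told apart. All mice were males aged 10 to 12 weeks on normal chow in cycles of 12 h light and 12 h dark, and livers were taken at ZT10, late in the light phase. The arrays were Affymetrix Mouse Gene 1.0 ST, and all levels below are log2 of the deposited normalized intensity.

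Each round of elongation adds a pair of carbons to an acyl-CoA in the endoplasmic reticulum. An Elovl enzyme performs the first, condensing step, and a reductase, a dehydratase and a second reductase complete the round. Elovl6 extends palmitate to stearate, Scd1 and Scd2 turn stearate into oleate, and Elovl1, Elovl3 and Elovl7 make longer saturated and monounsaturated chains. Fads2, Elovl5, Fads1 and Elovl2 act in turn on the essential fatty acids and make arachidonate and the precursors of docosahexaenoate. Rev-erb alpha represses transcription, and its own level cycles over the day, so that genes it represses peak when it is low. The SREBP factor encoded by Srebf1 is a known activator of Elovl6, Scd1, Fads1 and Fads2 in liver, and Elovl3 is known as a rhythmic liver gene that is higher in males.

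Promoter sequence of RefSeq (build GRCm38.p6) was at hand for 6 of the 10 genes. It was missing for Elovl3, Scd1, Scd2 and Fads1, so the motifs could not be sought in Elovl3, the gene that rose in KO liver. The 250 bases before the start site are shown for the 3 genes that were lower in KO liver, since these moved the same way. Capitals mark matches on either strand to 6 motifs, namely AGGTCA (the half-site read by Rev-erb and ROR receptors), TCACNCCAC (a sterol response element), CACGTG (an E-box), the box CCAAT (bound by NF-Y), the sequence GGGCGG (a GC box) and TTANGTAA (a D-box). Elovl2 has a pair of annotated start sites, and the upstream one was used.
Elovl6, chr3:129532136-129532385, plus strand: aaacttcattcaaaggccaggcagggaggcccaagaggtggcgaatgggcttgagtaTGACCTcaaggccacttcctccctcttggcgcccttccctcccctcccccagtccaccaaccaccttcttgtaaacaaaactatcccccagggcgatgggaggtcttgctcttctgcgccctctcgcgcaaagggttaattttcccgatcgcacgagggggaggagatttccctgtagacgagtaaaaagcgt
Elovl2, chr13:41220404-41220653, minus strand: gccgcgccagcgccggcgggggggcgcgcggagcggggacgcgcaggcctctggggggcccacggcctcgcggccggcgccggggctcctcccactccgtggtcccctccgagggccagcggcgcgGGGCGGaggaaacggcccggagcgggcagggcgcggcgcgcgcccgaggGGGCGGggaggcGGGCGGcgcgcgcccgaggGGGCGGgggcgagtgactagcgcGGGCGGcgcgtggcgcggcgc
Fads2, chr19:10101504-10101753, minus strand: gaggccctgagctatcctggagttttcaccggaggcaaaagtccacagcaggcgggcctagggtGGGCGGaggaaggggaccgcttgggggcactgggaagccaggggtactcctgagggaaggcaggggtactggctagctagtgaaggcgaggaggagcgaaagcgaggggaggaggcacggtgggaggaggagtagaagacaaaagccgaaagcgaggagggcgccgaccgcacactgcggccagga

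These 3 windows shared no motif across all of them. The Elovl6 window held 1 match, an AGGTCA half-site on the opposite strand whose first printed base lies 193 bases before the start, and 14% of the 32851 promoters in the table hold that half-site in the same window. Elovl2 held 5 GC boxes and Fads2 held 1, a motif found in 32.7% of promoters. Elovl1, which did not pass the test, also held a half-site, 95 bases before its second start site, and 7 GC boxes over both start sites, and Elovl7, which did not pass either, held 3 GC boxes. Elovl5 held an E-box 161 bases before its start and 2 CCAAT matches on the opposite strand, and Elovl1 held 1 CCAAT match. E-boxes occur in 6.02% and CCAAT in 33.8% of promoters. The sterol element was in 0 of the windows of Elovl1, Elovl2, Elovl5, Elovl6, Elovl7 and Fads2, against 1.05% of promoters, and so was the D-box, against 2.06%. A match is a description of the letters in these windows and not a bound site.

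Of the 10 genes, 1 rose and 3 fell in KO liver at an adjusted p under 0.05, by limma with Benjamini-Hochberg adjustment over all genes tested. Over all 19933 genes 5.61% passed the same test, 3.17% higher and 2.44% lower. The KO and WT livers did not overlap for those same 4 members, against 7.00% of all genes. The median difference, KO minus WT, was -0.02 over the 10 genes and 0.01 over all genes tested. Elovl3 rose, Elovl6, Elovl2 and Fads2 fell, and the other 6 genes did not pass. All livers were taken at ZT10, so a shifted daily rhythm and a changed mean level cannot be told apart. Fewer cells of a type and less RNA per cell cannot be told apart in whole liver.

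**Figure D1:**
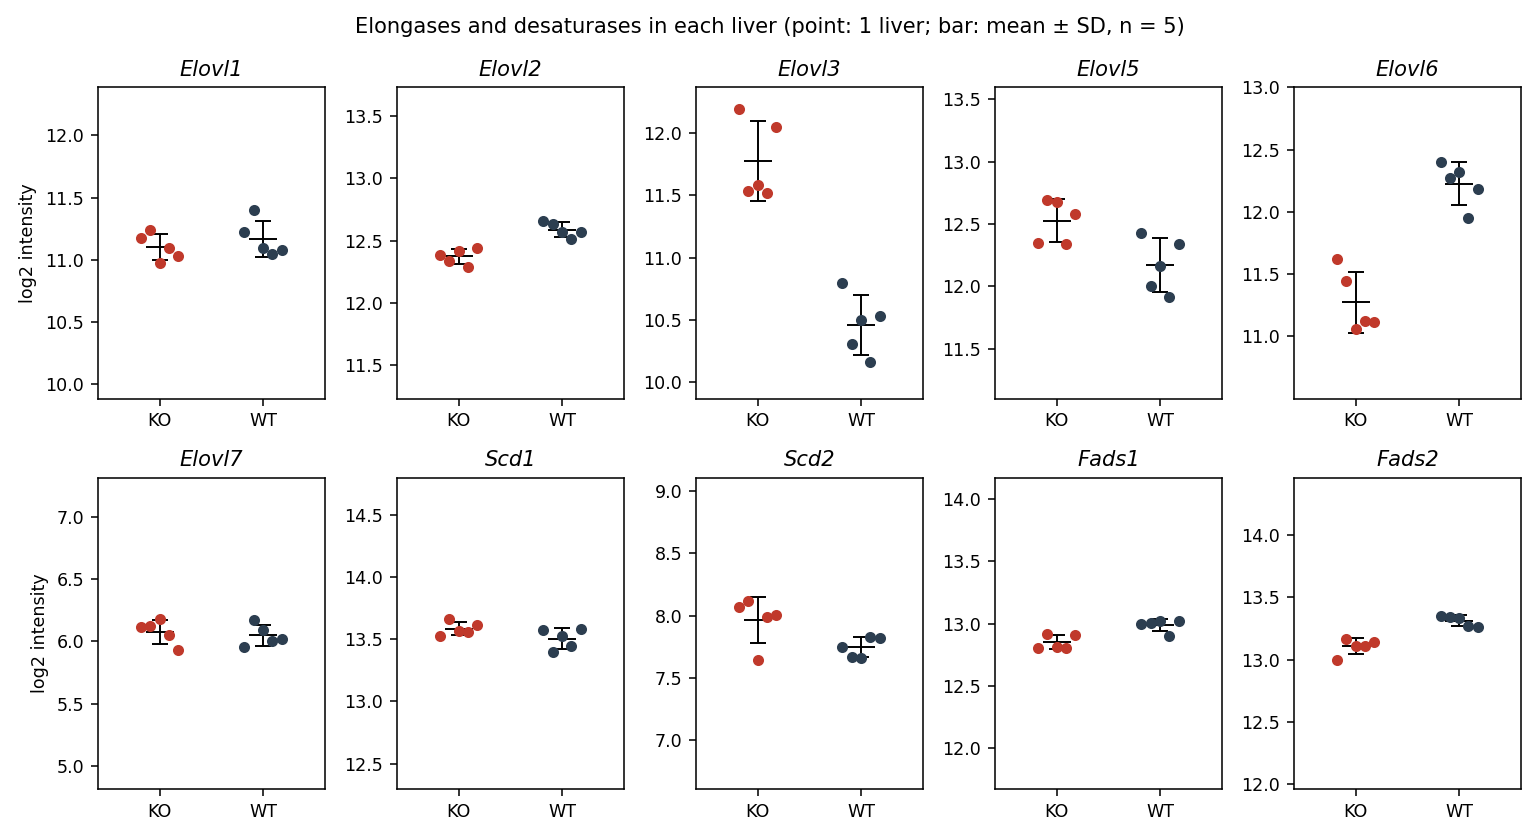
Log2 intensity of the 10 genes, 1 panel per gene with an axis of the same span, 1 point per liver, KO (red) left of WT (dark), and mean ± SD of 5 livers. Elovl3 livers of KO lie from 11.52 to 12.20 and of WT from 10.16 to 10.80, while Elovl6 livers of KO lie from 11.06 to 11.62 and of WT from 11.95 to 12.40.

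Elovl3, the elongase of saturated and monounsaturated chains, was the member with the largest change. It read 12.20, 11.54, 11.59, 11.52 and 12.05 in the 5 KO livers, against 10.80, 10.31, 10.50, 10.16 and 10.53 in the 5 WT livers. The lowest KO liver exceeded the highest WT liver. The mean was 11.78 ± 0.32 in KO and 10.46 ± 0.24 in WT (SD, n = 5 each). The difference of 1.32 on the log2 scale (SE 0.15) was a 2.50-fold rise with a 95% confidence interval of 1.99 to 3.12 and a limma adjusted p of 0.000241. It was the 30th largest increase among the 19933 genes. KO replicates 1 and 5 stood above the other KO livers, which lay within 11.52 to 11.59. The KO standard deviation of Elovl3 was the largest of the 10 genes, against a median of 0.098 over all genes.

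Elovl6, the elongase that turns palmitate into stearate, fell the most of the members. KO livers read 11.62, 11.45, 11.06, 11.13 and 11.12, and WT livers read 12.40, 12.27, 12.32, 11.95 and 12.18. The highest KO liver lay below the lowest WT liver. Its mean was 11.28 ± 0.25 in KO and 12.23 ± 0.17 in WT (SD, n = 5 each). The KO level was 0.517 times the WT level (95% confidence interval 0.435 to 0.615), and the difference was -0.95 (SE 0.11, limma adjusted p = 0.000405). This was the 37th largest decrease among all genes tested. In KO, replicates 1 and 2 were above the other 3 livers.

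**Figure D2:**
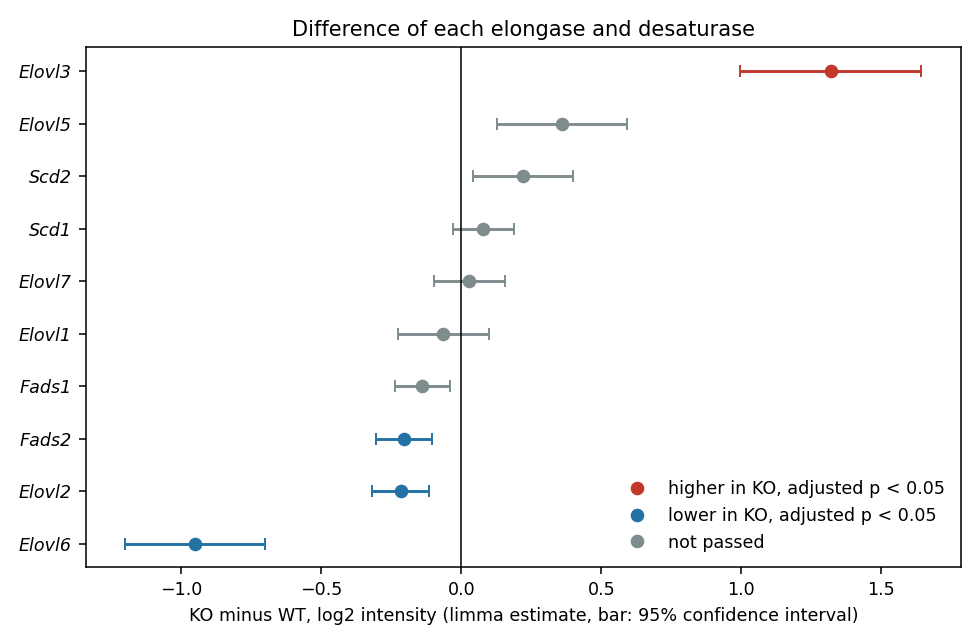
Difference of each gene (KO minus WT, log2 intensity) with the 95% confidence interval of the limma estimate, in red or blue where the adjusted p was under 0.05. Elovl3 at 1.32 and Elovl6 at -0.95 lie far outside the other 8 genes, which lie between -0.22 and 0.36.

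Elovl2, which extends polyunsaturated chains towards the precursors of docosahexaenoate, fell by a small and even amount. Its levels were 12.38, 12.34, 12.41, 12.29 and 12.44 in KO livers and 12.66, 12.64, 12.57, 12.51 and 12.57 in WT livers. KO and WT did not overlap, and the nearest livers of the 2 genotypes were 0.07 apart. The mean was 12.37 ± 0.062 in KO and 12.59 ± 0.057 in WT (SD, n = 5 each). The limma difference was -0.22 (SE 0.047, adjusted p = 0.0180), or 0.861 times the WT level with a 95% confidence interval of 0.802 to 0.924. Without the 3 arrays of widest interquartile range the difference was -0.19 and the call was lost (adjusted p = 0.0980).

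Fads2, the desaturase that opens the polyunsaturated pathway, fell by nearly the same amount. It read 13.00, 13.17, 13.11, 13.11 and 13.15 in KO livers, against 13.35, 13.34, 13.34, 13.27 and 13.26 in WT livers. No KO liver reached the lowest WT liver. The mean was 13.11 ± 0.065 in KO and 13.31 ± 0.043 in WT (SD, n = 5 each). The KO level was 0.868 times that of WT (95% confidence interval 0.810 to 0.929, limma difference -0.20, SE 0.046, adjusted p = 0.0200). The call was lost without WT replicate 2 (-0.20, adjusted p = 0.0520) and without the 3 arrays of widest interquartile range (-0.21, adjusted p = 0.110). Of the 1119 genes called, 76 had a smaller difference than Fads2 in absolute size.

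Fads1, the desaturase that follows in the same pathway and lies next to Fads2 on chromosome 19, did not pass. KO livers read 12.80, 12.92, 12.81, 12.81 and 12.91, against 13.00, 13.01, 13.02, 12.90 and 13.02 in WT livers. WT replicate 4 lay inside the KO range, and the other 4 WT livers lay above it. The difference was -0.14 (SE 0.045, 95% confidence interval -0.24 to -0.04, limma adjusted p = 0.105). With a mean-dependent and robust prior variance the same difference passed (adjusted p = 0.0326). Fads1 did not pass in the other 18 of 19 alternatives (limma adjusted p up to 0.243).

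Elovl5, which elongates polyunsaturated chains between the steps of Fads2 and Fads1, had a positive difference that did not pass. It read 12.35, 12.69, 12.68, 12.34 and 12.58 in KO livers and 12.43, 12.01, 12.16, 11.91 and 12.34 in WT livers. WT replicate 1 lay above KO replicates 1 and 4, so the genotypes overlapped. The difference was 0.36 (SE 0.11, 95% confidence interval 0.13 to 0.59, limma adjusted p = 0.0754). Without WT replicate 1 it was 0.42 and passed (adjusted p = 0.0411). In the other 18 of 19 alternatives it did not pass (limma adjusted p up to 0.174). Within the polyunsaturated pathway the estimates were thus -0.20 for Fads2, 0.36 for Elovl5, -0.14 for Fads1 and -0.22 for Elovl2. Whether these differ from one another was not tested.

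Scd1, the main stearoyl-CoA desaturase of liver, did not pass. KO livers read 13.52, 13.66, 13.56, 13.56 and 13.61, against 13.57, 13.40, 13.52, 13.45 and 13.58 in WT livers. The ranges overlapped between 13.52 and 13.58. The difference was 0.08 (SE 0.050, limma adjusted p = 0.50), and its 95% confidence interval of -0.03 to 0.19 spans 0.979 to 1.14 times the WT level. Elovl6 and Scd1 act one after the other on the same chain, and the interval of Elovl6 (-1.20 to -0.70) lies outside that of Scd1. Scd1 lay higher than Elovl6, at levels like those of the hepatocyte markers Serpina1c and Apob. Whether the arrays compress differences at such high levels was not tested. This limit also applies to Fads2 (mean 13.11 in KO and 13.31 in WT), Fads1 (12.85 and 12.99) and Elovl2 (12.37 and 12.59). The contrast of Elovl6 with Scd1 therefore holds for the measured intensities, and an unchanged amount of Scd1 RNA is not shown.

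Scd2, the desaturase best known from brain and other tissues outside adult liver, read 8.07, 8.12, 7.64, 7.99 and 8.01 in KO livers. WT livers read 7.75, 7.67, 7.66, 7.83 and 7.82. KO replicate 3 was below every WT liver, while the other 4 KO livers were above every WT liver. The difference was 0.22 (SE 0.082, 95% confidence interval 0.04 to 0.40, limma adjusted p = 0.167). Without KO replicate 3 it was 0.30 and passed (adjusted p = 0.00946), while 18 of 19 alternatives did not pass (limma adjusted p up to 0.413). Scd1, Scd2, Scd3 and Scd4 are neighbours on chromosome 19 and close paralogs, so that 1 transcript may light up probes of another and each value carries that uncertainty. Scd3 (difference 0.00) and Scd4 (0.09) lay under the lower quartile on every array.

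The remaining elongases showed no difference beyond the spread between livers. Elovl1, which makes very long saturated chains, read between 10.98 and 11.24 in KO and between 11.04 and 11.40 in WT. Its difference was -0.06 (95% confidence interval -0.23 to 0.10, limma adjusted p = 0.779). Elovl7 read between 5.93 and 6.18 in KO and between 5.96 and 6.17 in WT, with a difference of 0.03 (95% confidence interval -0.10 to 0.16, limma adjusted p = 0.885). On 5 of the 10 arrays Elovl7 lay under the lower quartile of the array, so a level above background is not shown.

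**Figure D3:**
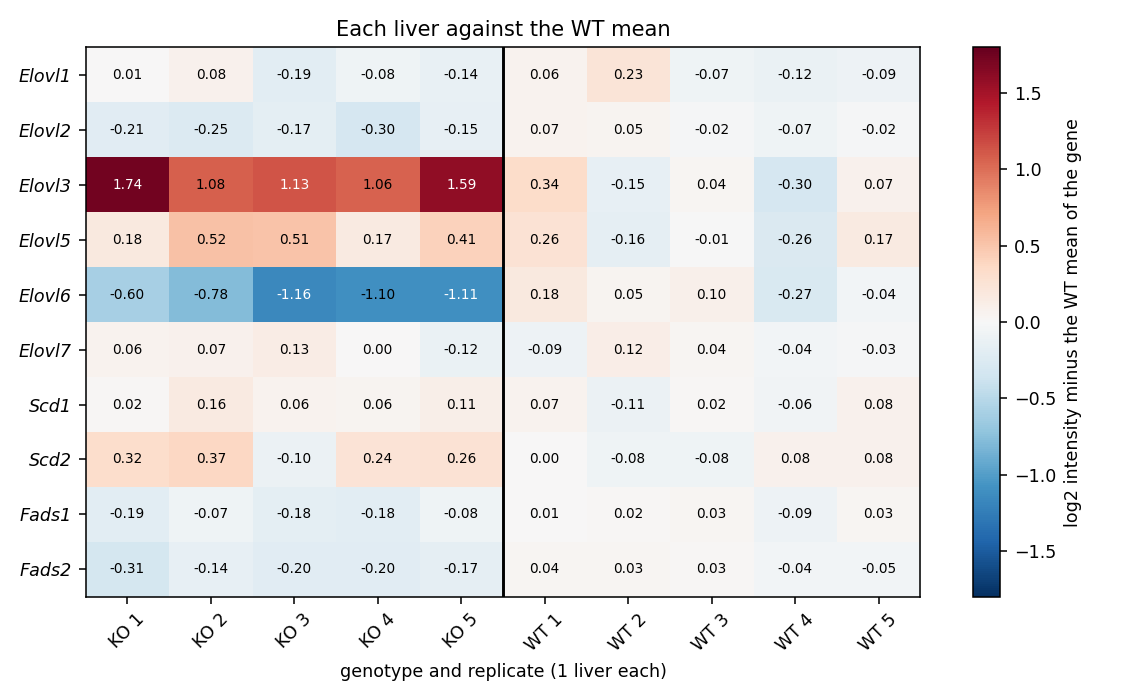
Log2 intensity of each gene (rows) in each liver (columns, KO left and WT right) minus the mean of the 5 WT livers, in red where above and in blue where below that mean. The Elovl3 row is 1.06 to 1.74 above and the Elovl6 row 0.60 to 1.16 below the WT mean in KO, and Elovl2, Fads1 and Fads2 are below it in all 5 KO livers.

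Livers of the same genotype also differed from one another across the set. WT replicate 4 was the lowest WT liver for 6 of the 10 genes, among them Elovl3 and Elovl6, and lay above the WT mean for 1. WT replicate 1 was the highest WT liver for 5 genes and lay above the WT mean for 9. Among KO livers, replicate 2 was the highest for 6 genes, and replicate 4 lay above the KO mean for 2. Scd1, Fads1 and Fads2 ordered the 5 KO livers in the same way, with replicate 1 lowest and replicate 2 highest, while Elovl3 and Elovl6 were highest in KO replicate 1. Scd1, Fads1 and Fads2 did not order the WT livers alike. The lowest WT liver was replicate 2 for Scd1, replicate 4 for Fads1 and replicate 5 for Fads2. Fads1 was nearly tied in KO replicates 1, 3 and 4 (12.80, 12.81 and 12.81), and a shared order was not tested. With 5 livers per genotype no correlation was computed.

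Genes outside the set whose profile came closest were found by the mean absolute difference of mean-centred log2 values over the 10 arrays. As the centring spans both genotypes, genes with a like difference, KO minus WT, come out close (1.34 for Nt5e, -0.23 for Mif). Likeness among livers of the same genotype was not tested. For Elovl3 these were Nt5e at 0.131, Leap2 at 0.192, Gstt3 at 0.209, Gldc at 0.211 and Car14 at 0.217. For Elovl6 they were Hes6 at 0.0958, Nabp1 at 0.121, Fabp5 at 0.144, Rcan1 at 0.145 and Pdilt at 0.148. Fabp5 encodes a fatty acid binding protein. Elovl2 was closest to Mif, Hdlbp, Gopc, H13 and Snrnp70, at 0.0197 to 0.0351. Fads2 was closest to Tmem30a, 2700049A03Rik, Bst2, Rnf166 and Eif4ebp1, at 0.0298 to 0.0385.

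The partners that complete the elongation round showed no change that passed. None of 6 passed in limma, and 1 had an unadjusted p under 0.05, which 17.4% of all genes had. That gene was the ketoacyl-CoA reductase Hsd17b12, with a difference of -0.15 (adjusted p = 0.136). Among the dehydratases Hacd2 was nearest to passing (0.07, adjusted p = 0.530). None of 6 cytochrome b5 and reductase genes, which pass electrons to the desaturases, passed in limma, and 1 had an unadjusted p under 0.05, against 17.4% of all genes. That was Cyb5r1 at -0.19 (adjusted p = 0.0873), whose KO and WT livers did not overlap and which passed with array weights (adjusted p = 0.0339). Cyb5r3 had a difference of -0.08 (adjusted p = 0.515).

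Among 7 related elongases and desaturases 1 passed, against 5.61% of all genes. Degs1, the ceramide-forming desaturase, rose by 0.19 (limma adjusted p = 0.0338). Its call was lost in 10 of 19 alternatives, 8 of which left out 1 array (adjusted p up to 0.130). Fads6 had a difference of -0.23 with KO and WT livers that did not overlap (adjusted p = 0.0536). It passed in 5 alternatives, and Fads3, the neighbour of Fads2, had a difference of -0.12 (adjusted p = 0.275).

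Genes of palmitate supply included enzymes, the citrate carrier Slc25a1 and the regulators Thrsp and Mid1ip1. Their differences were negative in 9 of 10 cases, against 9141 of all 19933 genes, and 1 passed, against 5.61% of all genes. Of the 10 measured, Acly, the citrate lyase, fell by 0.59 (limma adjusted p = 0.00354), 9 did not pass, and the median difference was -0.18 against 0.01 over all genes. Acly read 10.43, 10.27, 9.93, 10.05 and 10.24 in KO livers, against 10.85, 10.49, 10.82, 10.83 and 10.87 in WT livers. The genotypes did not overlap, though WT replicate 2 lay only just above KO replicate 1. The fatty acid synthase gene Fasn had a difference of -0.53 (adjusted p = 0.0677) and the pyruvate kinase gene Pklr one of -0.45 (adjusted p = 0.0695). Fasn passed in 3 and Pklr in 2 alternatives that left out 1 array. Without the 3 arrays of widest interquartile range the call of Acly was lost (-0.54, adjusted p = 0.0684), and the differences were -0.28 for Fasn (adjusted p = 0.388) and -0.32 for Pklr (adjusted p = 0.317).

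Of 12 measured regulators of lipogenic transcription, 1 rose, against 3.17% of all genes, and 11 did not pass. Insig2, which holds SREBP proteins in the endoplasmic reticulum, rose by 1.68 (SE 0.097, limma adjusted p = 1.1e-06). It read 12.49 to 12.87 in KO livers and 10.66 to 11.17 in WT livers, with no overlap. Srebf2 (0.20, adjusted p = 0.232) and the coactivator Ppargc1b (0.34, adjusted p = 0.278) did not pass. Srebf1, chosen after its values were seen because it is the known activator of several members, read 10.98, 10.83, 9.70, 10.30 and 9.79 in KO livers. WT livers read 10.88, 10.06, 10.63, 10.91 and 11.02. The ranges overlapped, and the difference of -0.38 had an SE of 0.25 (adjusted p = 0.534).

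**Figure D4:**
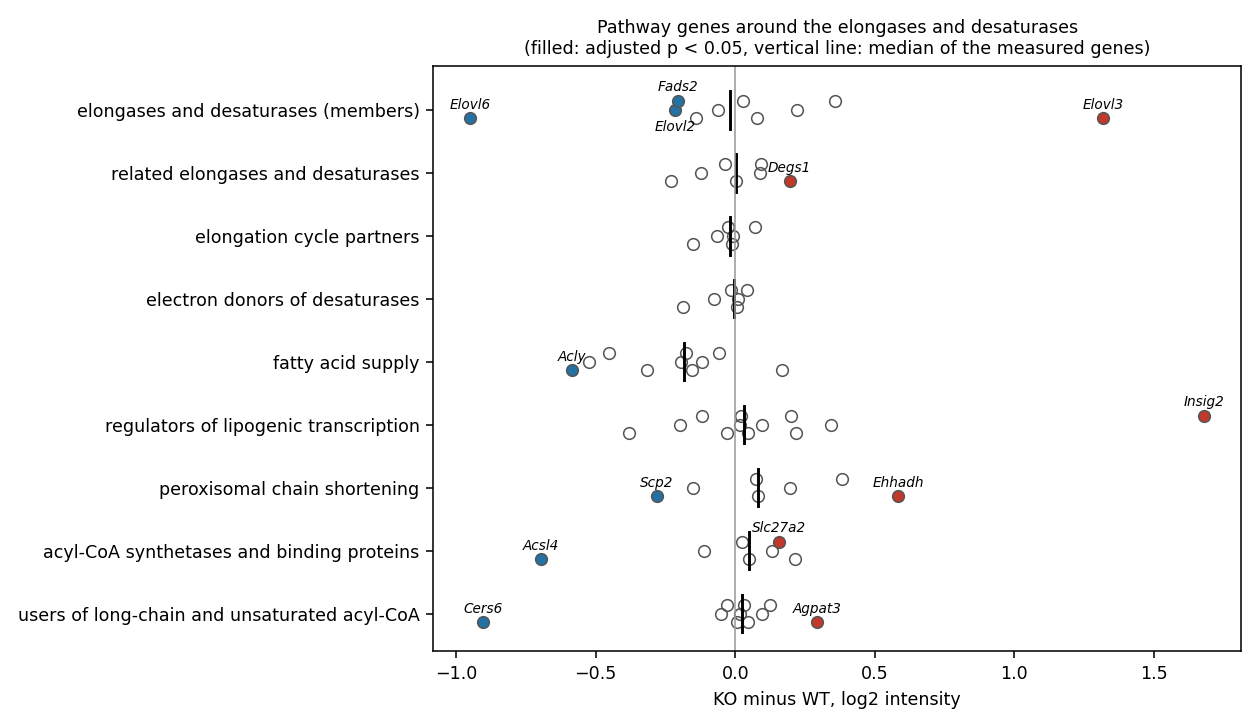
Difference, KO minus WT on the log2 scale, of each measured gene in the set and in 8 lists of related genes, filled and named where the adjusted p was under 0.05, with a vertical line at the median. Elovl3 and Insig2 lie furthest right at 1.32 and 1.68, and Elovl6 and Cers6 furthest left at -0.95 and -0.90.

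Peroxisomal enzymes, which shorten the longest polyunsaturated chains to docosahexaenoate, went both ways. Of 7 measured, the bifunctional enzyme gene Ehhadh rose by 0.58 (limma adjusted p = 0.00815), the thiolase Scp2 fell by 0.28 (adjusted p = 0.0102) and 5 did not pass. That is 1 higher and 1 lower, against 3.17% and 2.44% of all genes. The thiolases Acaa1b (0.38, adjusted p = 0.238) and Acaa1a (0.20, adjusted p = 0.294) were nearest to passing. The calls of Ehhadh and Scp2 were lost without the 3 arrays of widest interquartile range (adjusted p = 0.0779 and 0.0980).

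Among 7 measured acyl-CoA synthetase and acyl-CoA binding genes, Acsl4 fell and Slc27a2 rose. Acsl4 activates arachidonate and fell by 0.70 (limma adjusted p = 0.00405). The very long chain synthetase Slc27a2 rose by 0.16 (adjusted p = 0.0499), a call lost in 14 of 19 alternatives (adjusted p up to 0.227). Slc27a5 (0.13, adjusted p = 0.112) and Acsl5 (0.21, adjusted p = 0.135) did not pass. Of 10 measured enzymes that use long or unsaturated acyl-CoA, Cers6, the ceramide synthase that prefers palmitoyl-CoA, fell by 0.90 (adjusted p = 0.00236). The acyltransferase Agpat3 rose by 0.29 (adjusted p = 0.0134) and 8 did not pass, among them Cers4 (0.10, adjusted p = 0.568) and Lpcat3 (0.12, adjusted p = 0.632). The call of Agpat3 was lost without the 3 arrays of widest interquartile range (adjusted p = 0.0643). Each of these lists gave 1 higher and 1 lower call, against 3.17% and 2.44% of all genes.

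Checks on the livers bear on all of these values. Nr1d1 itself was not lower in the libraries labelled KO, at 9.29 to 10.54 in KO and 9.60 to 10.00 in WT (difference 0.14, limma adjusted p = 0.803), and the sources used here do not say whether its probe set covers the deleted part. Arntl, a gene that Rev-erb alpha represses, lay at 9.12 to 9.82 in KO and 6.93 to 7.54 in WT. The summed hepatocyte markers lay at 16.42 to 16.48 in KO and 16.45 to 16.49 in WT, and 0 of 7 passed in limma, with 0 at an unadjusted p under 0.05. In KO livers the means of these 7 markers ran from 12.89 for Hnf4a to 13.97 for Alb. Whether the arrays compress differences at such high levels was not tested, so an equal share of hepatocytes is not shown. Of 5 markers of brown adipocytes and 6 of adipocytes, tissues that also express Elovl3 and Scd1, 0 passed and 1 in each list had an unadjusted p under 0.05, against 17.4% of all genes. Ucp1, Cidea, Adipoq and Lep lay under the lower quartile on every array. The summed adipocyte markers lay at 9.67 to 9.79 in KO and 9.60 to 9.69 in WT, and those of brown adipocytes at 8.82 to 8.95 in KO and 8.89 to 8.94 in WT (log2 of the summed intensity). Of 35 measured markers of stellate, endothelial, Kupffer, bile duct, lymphoid and erythroid cells, 1 passed, the bile duct gene Sox9 (0.62, adjusted p = 0.0129). Of the 35, 14.3% had an unadjusted p under 0.05 in limma, against 17.4% of all genes. The median was 0.12 over 7 endothelial markers, 5 of them positive. The stellate marker Lrat lay at -0.59 (limma adjusted p = 0.164), but the median over all 8 stellate and fibroblast markers was -0.004. Their sum lay at 12.83 to 13.06 in KO and 12.83 to 13.04 in WT. Of 5 erythroid markers 2 were measured. The other 4 measured bile duct markers did not pass, at -0.11 for Krt7, -0.02 for Krt19, -0.01 for Epcam and 0.11 for Cftr, and the median of that list was -0.01. Their sum with Sox9 lay at 9.53 to 9.88 in KO and 9.28 to 9.49 in WT, and its part in the values of the elongases and desaturases was not tested.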

How the data were processed

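Liver RNA of each mouse was hybridized to its own array. The authors deposited normalized intensity values of 27541 probe sets on a linear scale, from 8.93 to 18280. The submitters' processing notes name RMA and Partek, and versions and row filters are not stated there. Array medians ran from 156 to 165 in intensity. No detection calls came with the table, and the number of arrays limits the precision.

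Log2 was taken of the deposited intensity values. Probe sets were named through the platform annotation, in which 21631 had 1 symbol, 1317 several and 4593 none. Gene IDs of 21544 of the first kind matched RefSeq, and 0 symbols needed an update. A gene with more than 1 probe set was represented by the one with the highest mean. The genotypes were compared in limma 3.58.1 under R 4.3.3, two-sided, with no covariate and Benjamini-Hochberg adjustment over all 19933 genes, and every adjusted p in the text comes from limma. These p-values rest on the spread among the 10 mice, with the variance of each gene drawn towards a prior variance estimated from all genes tested. The fit was tested on simulated data.

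The members, the 8 related lists (74 entries) and the 9 marker lists were chosen with earlier results of these data known. Of all 134 entries 118 were measured by a probe set with 1 symbol. An unadjusted limma p under 0.05 was found for 7 of the 10 members, against 17.4% of all genes. It was found for 5 of 7 synthetase and binding genes, 4 of 10 supply genes and 3 of 7 peroxisomal genes. The counts were 3 of 7 related elongases and desaturases, 4 of 12 regulators and 2 of 10 users of acyl-CoA. As members and lists were chosen with results known, these counts are not a test of them. The text names all members, up to 5 called and 2 other genes of each related list, called markers, and the 5 genes closest in profile to each called member. Further list genes and markers, such as Srebf1, Scd3, Scd4, Slc25a1, Lrat, Krt7 and Ucp1, were named outside this rule with their values known. Alternatives changed the choice of probe set, the filter on dim genes, the scaling, the offset, the array weights, the prior variance and the arrays included.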

Additional observations from a re-analysis of the deposited data

Results flagged for a closer look

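In 5 cases 1 liver lay apart from the other 4 of its genotype by Dixon's criterion for 5 samples, among 42 groups examined, where chance gives about 1 in 20. KO replicate 3 read 7.64 for Scd2, below the other KO livers at 7.99 to 8.12. WT replicate 4 read 12.90 for Fads1, below the other WT livers at 13.00 to 13.02. WT replicate 2 read 10.49 for Acly, against 10.82 to 10.87 in the other WT livers. WT replicate 1 read 10.91 for Degs1, above the others at 10.82 to 10.84, and WT replicate 3 read 10.56 for Cers6, above the others at 9.93 to 10.03.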

How the results depend on the processing

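Under 19 alternatives Elovl3 (differences 1.21 to 1.40) and Elovl6 (-1.04 to -0.80) kept their calls, and none of the 10 members changed sign where it was tested (Elovl7 was not tested without dim genes). Some alternatives could not move a member's difference or its sign. These were the choice of probe set (each member has 1), the filter on dim genes and the prior variance. The number of members called was 3 to 5 when 1 array was left out, and 2 (1 higher, 1 lower) without the 3 arrays of widest interquartile range, namely KO replicates 4 and 5 and WT replicate 1. Over all genes 805 to 1248 passed with 1 array left out and 527 without those 3 arrays, against 1119. Centring on array medians gave 470 higher and 460 lower, against 632 and 487. Related elongases and desaturases gave 0 to 1 call with 1 array left out, 0 without the 3 arrays, and 2 without dim genes, with log2(intensity + 16), with array weights and with the trended robust prior, against 1. Electron donors gave 1 call with array weights, against 0. Fatty acid supply gave 1 to 3 calls with 1 array left out and 0 without the 3 arrays, against 1. Peroxisomal chain shortening gave 0 without the 3 arrays, against 2, and users of acyl-CoA gave 1, against 2. Acyl-CoA synthetases gave 1 to 2 calls with 1 array left out, and 1 with every probe set by itself, centring, quantile normalization, array weights or without the 3 arrays, against 2. Leaving out arrays lowers the number of samples in the fit, and the cause of the other moves was not tested. No paired analysis was possible because the labels give no replicate numbers that the genotypes share.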
